A study of Mus musculus with 8 samples.

Results

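The genes described here were listed as genes of spermatogonial differentiation and meiotic entry. Differentiating spermatogonia are mitotic germ cells of the testis that have left the stem cell pool and are on the way to meiosis. Some of the listed genes are also made by other cells, as given below. The genes are Kit, Dmrt1, Stra8, Sohlh1, Sohlh2 and Uchl1. Each was taken by its name on the array with every probe that carries it. Of the 6 listed genes, 5 had a probe of that name, with 6 probes on 15 spots, among 27962 gene names on the array. Sohlh1 was not analysed here. All 5 entered the test, which covered 17593 gene names.

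The study asked which RNAs associate with Dazl, which binds RNA in germ cells and is needed for their development. Testes of male mice of mixed C57BL/6 and 129SV background at postnatal day 14 were lysed, and RNA was precipitated without UV crosslinking. The cells of all 8 samples, the controls included, are labelled as juvenile testicular germ cells that express Dazl fused to GFP and V5. The 4 groups of 2 arrays each were a precipitate with an antibody against V5, a precipitate with an antibody against GFP, a mock precipitate with normal mouse IgG, and input total RNA. They are called V5, GFP, IgG and Input below. Nothing in the labels says whether the paired arrays came from separate animals, so the p-values measure only the spread between these arrays, which may be technical.

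The labels conflict in 3 places. The series text names PABP1 where the sample labels name GFP as the target of the second antibody, and the sample labels were followed. V5 replicate 1 is described as total RNA and Input replicate 2 as a precipitate, against their titles, which were followed. According to the file headers, the V5 and GFP arrays lay on 1 slide and the IgG and Input arrays on another. Slide and group therefore cannot be told apart in V5 or GFP against IgG or Input, while IgG against Input and V5 against GFP each lie within a slide. On each array 57.2% to 62.2% of 43379 non-control spots were well above background, and Pearson's r between the paired arrays lay between 0.990 and 0.993, taken over probes, which are no replicates of each other.

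The cell label was checked with marker genes. Of 10 germ cell markers on the array, 9 or 10 were well above background on every array, and of 14 Sertoli cell markers all 14 were. RNA of the supporting cells of the seminiferous tubule was therefore in every preparation. In such bulk samples, fewer cells of a type and less RNA per cell cannot be told apart.

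As background, spermatogonia begin to differentiate when retinoic acid reaches them and they start to make Kit, the receptor for stem cell factor. Kit signals through phosphoinositide 3-kinase and supports survival and division of these cells. Sohlh1 and Sohlh2 are basic helix-loop-helix transcription factors that promote Kit expression and differentiation. Dmrt1 is a DM domain transcription factor that holds spermatogonia in mitosis by limiting the retinoic acid response and Stra8. Stra8 is induced by retinoic acid and is needed for entry into meiosis. Uchl1 is a deubiquitinating enzyme that is abundant in spermatogonia and in neurons.

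By the RefSeq table of assembly GRCm38.p6, Kit lies on chromosome 5 from 75574987 to 75656722, and Uchl1 on the same chromosome from 66676121 to 66687234. Stra8 lies on chromosome 6 from 34920163 to 34939344, Sohlh2 on chromosome 3 from 55182044 to 55209957, and Dmrt1 on chromosome 19 from 25505618 to 25604328. The 250 bases before a RefSeq transcript start of Kit, Sohlh2 and Stra8 are shown because these genes stand for the different patterns below, and because a retinoic acid target and targets of helix-loop-helix factors are among them. All are on the plus strand and printed 5′ to 3′. The start used is that of the RefSeq promoter table, which for Stra8 lies inside the gene span given above. Capitals mark each match to CANNTG, the E-box that helix-loop-helix factors bind, and to AGGTCA, the half-site of retinoic acid receptors, searched on both strands, and no matches overlap.
Kit, chr5:75574737-75574986: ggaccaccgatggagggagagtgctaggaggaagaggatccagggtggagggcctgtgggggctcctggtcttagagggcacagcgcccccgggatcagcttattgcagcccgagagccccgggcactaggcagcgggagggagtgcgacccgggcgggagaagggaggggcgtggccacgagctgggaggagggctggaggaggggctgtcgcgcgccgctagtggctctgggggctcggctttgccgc
Sohlh2, chr3:55181794-55182043: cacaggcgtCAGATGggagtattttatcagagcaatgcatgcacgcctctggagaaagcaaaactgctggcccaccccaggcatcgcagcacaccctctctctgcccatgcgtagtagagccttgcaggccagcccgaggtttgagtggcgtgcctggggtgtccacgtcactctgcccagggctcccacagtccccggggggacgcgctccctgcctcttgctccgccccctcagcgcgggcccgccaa
Stra8, chr6:34920698-34920947: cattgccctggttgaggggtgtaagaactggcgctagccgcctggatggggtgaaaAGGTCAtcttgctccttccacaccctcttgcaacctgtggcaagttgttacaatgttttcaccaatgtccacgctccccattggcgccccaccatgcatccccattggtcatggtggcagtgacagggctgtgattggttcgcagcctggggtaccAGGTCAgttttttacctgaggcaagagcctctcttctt
The Stra8 window held 2 matches to AGGTCA, beginning 194 and 38 bases before the start, and none to CANNTG. The Sohlh2 window held 1 match to CANNTG and the Kit window held neither word. Among 32841 windows of the same length before RefSeq starts, 14% held AGGTCA and 66.2% held CANNTG. These are matches of letters in genomic sequence, which the arrays did not measure, and are not evidence of binding.

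Signals are given as multiples of the 75th percentile of the non-control spots of the same array, called scaled signal, and differences are on the log2 scale with the standard error of the limma fit. Probes differ in how brightly they label, so signals are compared between groups for 1 probe and not between genes. All 6 probes were well above background on all 8 arrays, and none of their spots was saturated or marked as an outlier.

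Kit, Dmrt1, Stra8 and Sohlh2 had higher signal in both Dazl precipitates than in the IgG mock, and Uchl1 did not. The excess over IgG was 2.31-fold for Kit, 3.10-fold for Dmrt1, 1.75-fold for Stra8 and 1.33-fold for Sohlh2 with the V5 antibody. With the GFP antibody it was 3.46-fold for Kit, 5.30-fold for Dmrt1, 2.26-fold for Stra8 and 1.79-fold for Sohlh2. Kit, Dmrt1 and Sohlh2 were also higher than Input in both precipitates, whereas Stra8 was not.

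In V5 against IgG, 4 of the 5 measured genes were higher and 0 lower at an adjusted p under 0.05, where 16.7% of all genes tested were called higher and 40.3% lower. The median log2 difference of the 5 was 0.81, against -0.21 for all genes. In GFP against IgG, 4 were higher and 1 lower, where 21.6% of all genes were called higher and 52.1% lower, and the median was 1.17 against -0.32 for all genes. Both comparisons use the same IgG arrays. With so many genes called, the place of each gene in the distribution is given beside its call.

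**Figure D1:**
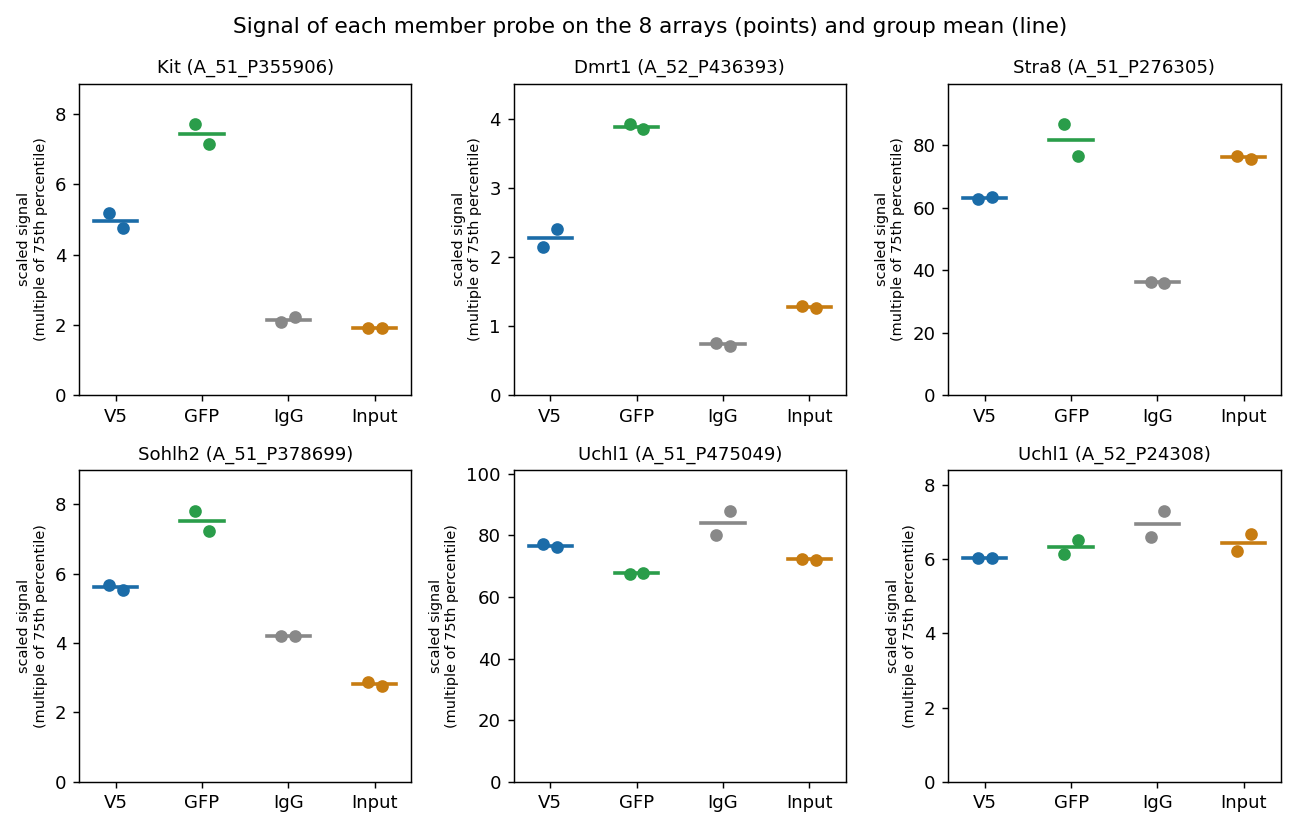
Scaled signal (multiple of the array's 75th percentile, linear axes from 0) of the 6 probes on the 8 arrays, with 1 panel a probe; points are arrays and lines are group means of V5, GFP, IgG and Input from left to right. Kit, Dmrt1 and Sohlh2 are highest in GFP and next highest in V5, Stra8 is lowest in IgG, and the Uchl1 probes differ little.

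Kit, the receptor that marks differentiating spermatogonia, had scaled signals of 5.18 and 4.74 in V5, 7.71 and 7.16 in GFP, 2.08 and 2.22 in IgG, and 1.90 and 1.91 in Input. Both precipitates lay above both references with no overlap, and IgG lay just above Input. With 2 arrays a group, such separation is weak evidence here and for the genes below. Its share over all genes was not counted. In V5 against IgG the log2 difference was 1.21 ± 0.08 (SE, limma adjusted p = 0.000755), higher than that of 98.7% of genes. In GFP against IgG it was 1.79 ± 0.08 (limma adjusted p = 7.45e-05), higher than that of 99.2% of genes. Against Input, Kit was 2.60-fold higher in V5 and 3.90-fold higher in GFP. The IgG and Input levels did not differ past the threshold (log2 difference 0.17 ± 0.08, limma adjusted p = 0.0885). With spike-in scaling that difference was -0.67. The order of the levels was GFP, V5, and then IgG and Input, whose own order was not settled. The step from GFP to V5 passed the threshold in 5 of 14 alternative settings with a test.

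Kit was printed on 10 spots of 1 probe on each array, which shows the precision within an array. The coefficient of variation over these spots was 3.30% to 6.95% in the processed signal. Before the correction of trends over the slide it was 18.5% to 24.0%. Taken spot by spot, the log2 difference of V5 against IgG ran from 1.15 to 1.28, and that of GFP against IgG from 1.74 to 1.87. In the authors' deposited table the 10 Kit entries had Input means from 14.6 to 26.2, while their V5 over Input ratios lay between 2.98 and 3.38 and their GFP over Input ratios between 4.50 and 5.09.

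Dmrt1, the DM domain factor that keeps spermatogonia mitotic, had scaled signals of 2.14 and 2.41 in V5, 3.93 and 3.86 in GFP, 0.761 and 0.708 in IgG, and 1.29 and 1.26 in Input. Every group was separate from every other. The log2 difference was 1.63 ± 0.08 in V5 against IgG (SE, limma adjusted p = 0.000722). In GFP against IgG it was 2.41 ± 0.08 (limma adjusted p = 7.45e-05), which placed Dmrt1 at rank 11 of 17593 genes. Against Input the excess was smaller, 1.78-fold in V5 and 3.05-fold in GFP, and IgG itself lay 1.74-fold below Input (limma adjusted p = 0.000146). The order was GFP, V5, Input, IgG, and all neighbours in it differed past the threshold. The step from GFP to V5 passed in only 5 of 14 alternative settings with a test.

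Sohlh2, a helix-loop-helix factor of early differentiation, had scaled signals of 5.68 and 5.52 in V5, 7.81 and 7.23 in GFP, 4.20 and 4.22 in IgG, and 2.88 and 2.75 in Input. The groups were again separate, but here IgG lay above Input. The log2 difference from IgG was 0.41 ± 0.07 in V5 (SE, limma adjusted p = 0.0051) and 0.84 ± 0.07 in GFP (limma adjusted p = 0.000222). Against Input, Sohlh2 was 1.99-fold higher in V5 and 2.67-fold higher in GFP. IgG was 1.49-fold higher than Input (limma adjusted p = 0.000312), a direction that turns with spike-in scaling. The order was GFP, V5, IgG, Input, with the step from GFP to V5 past the threshold in 5 of 14 alternative settings with a test.

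Stra8, the retinoic acid target needed for meiosis, had scaled signals of 62.8 and 63.6 in V5, 86.7 and 76.5 in GFP, 36.3 and 36.0 in IgG, and 76.6 and 75.7 in Input. IgG was the low group, V5 was between IgG and Input, and the GFP and Input arrays overlapped. The log2 difference from IgG was 0.81 ± 0.08 in V5 (SE, limma adjusted p = 0.00127) and 1.17 ± 0.08 in GFP (limma adjusted p = 0.000126). IgG lay 2.11-fold below Input (limma adjusted p = 3.53e-05). GFP did not differ from Input past the threshold (log2 difference 0.10 ± 0.08, limma adjusted p = 0.286). V5 was 1.21-fold lower than Input (limma adjusted p = 0.0181), a call that was lost without any single V5 or Input array, with log2 values from -0.28 to -0.26. In the authors' deposited table, which is scaled to the median, the log2 ratio of V5 over Input for Stra8 was 0.02. The order was GFP with Input, then V5, then IgG, but the place of V5 was settled only above IgG. V5 was past the threshold against Input in 8 and against GFP in 5 of 14 alternative settings with a test.

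Uchl1 had 2 probes. The brighter one had scaled signals of 77.3 and 76.1 in V5, 67.5 and 67.8 in GFP, 80.2 and 87.9 in IgG, and 72.5 and 72.2 in Input. The other had 6.04 and 6.03 in V5, 6.15 and 6.53 in GFP, 6.61 and 7.31 in IgG, and 6.22 and 6.68 in Input. On both probes IgG had the highest mean. By the brighter probe, GFP was 1.24-fold lower than IgG (limma adjusted p = 0.00633), while V5 did not differ from IgG past the threshold (log2 difference -0.13 ± 0.07, limma adjusted p = 0.144). By the other probe neither comparison with IgG passed, with adjusted p = 0.0743 in V5 and 0.182 in GFP in limma's fit over all kept probes. Between V5 and GFP the log2 difference was 0.18 on the brighter probe and -0.07 on the other, so the probes disagree in sign, and neither passed. Against IgG, Uchl1 lay near the middle of all genes, above 57.6% of them in V5 and above 51.0% in GFP.

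Against Input, 3 genes were higher and 1 lower in V5, where 37.7% of all genes were called higher and 35.5% lower. In GFP 3 were higher and 0 lower, where 36.2% were called higher and 39.1% lower. The genes higher than Input were Kit, Dmrt1 and Sohlh2 in both, and these comparisons share the Input arrays. In IgG against Input, within 1 slide, 2 genes were higher (Sohlh2 and Uchl1) and 2 lower (Dmrt1 and Stra8), where 43.9% of all genes were called higher and 29.3% lower, and the first 2 turned with spike-in scaling. The Uchl1 call, at 1.16-fold (limma adjusted p = 0.0274), passed in 5 of 14 alternative settings, 1 of them with the sign turned.

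**Figure D2:**
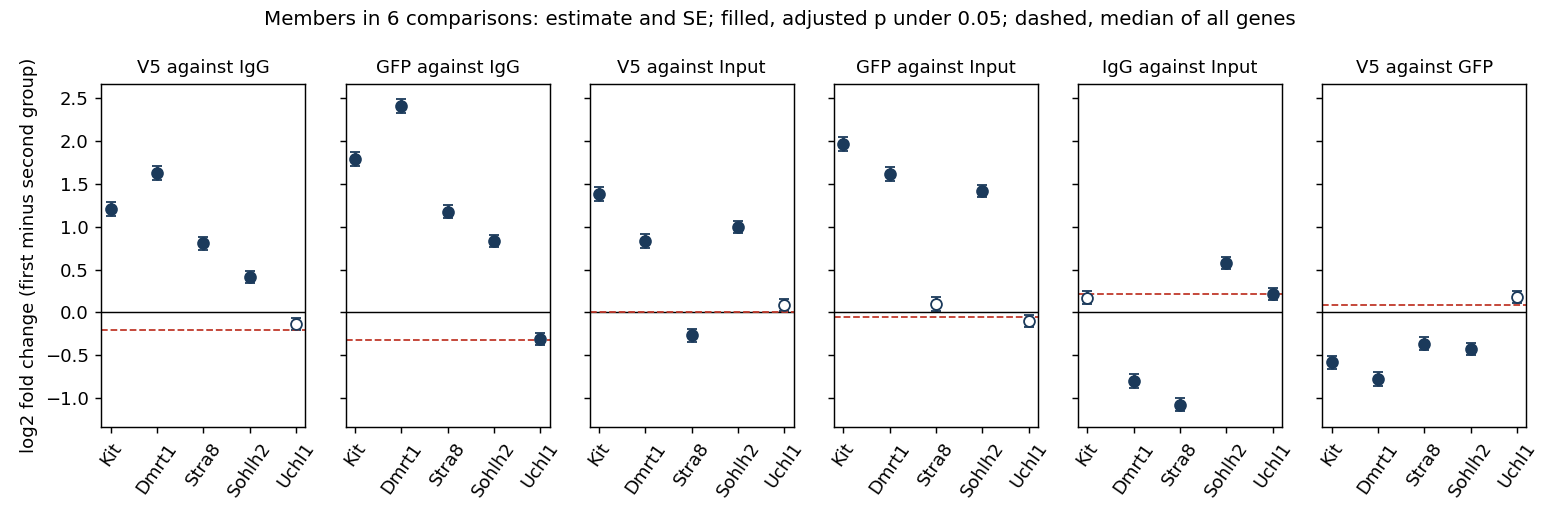
Log2 fold change (first minus second group named above each panel) of the 5 genes with standard errors from the fit over 8 arrays; filled points have an adjusted p under 0.05 and the dashed line is the median of all 17593 genes. Kit, Dmrt1, Stra8 and Sohlh2 lie above 0 in both comparisons with IgG, and Stra8 drops to -0.27 and 0.10 against Input.

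The level at which the arrays are set equal moves every gene of a comparison together. With arrays scaled to spike-in RNA in place of the 75th percentile, the median of all genes moved to 0.21 in V5 against IgG, to 0.24 in GFP against IgG and to -0.62 in IgG against Input, where it had been -0.21, -0.32 and 0.22. The signs of Kit, Sohlh2 and Uchl1 in IgG against Input turned under that scaling, to -0.67, -0.26 and -0.62, and those of Uchl1 in V5 and GFP against IgG turned to 0.28 and 0.26. Differences from the median of all genes do not depend on this level. In V5 against IgG they were 1.41 for Kit, 1.84 for Dmrt1, 1.01 for Stra8, 0.62 for Sohlh2 and 0.07 for Uchl1, in log2 units. In GFP against IgG they were 2.12 for Kit, 2.73 for Dmrt1, 1.50 for Stra8, 1.16 for Sohlh2 and 0.01 for Uchl1. In IgG against Input they were -0.04 for Kit, -1.01 for Dmrt1, -1.29 for Stra8, 0.36 for Sohlh2 and 0.00 for Uchl1.

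**Figure D3:**
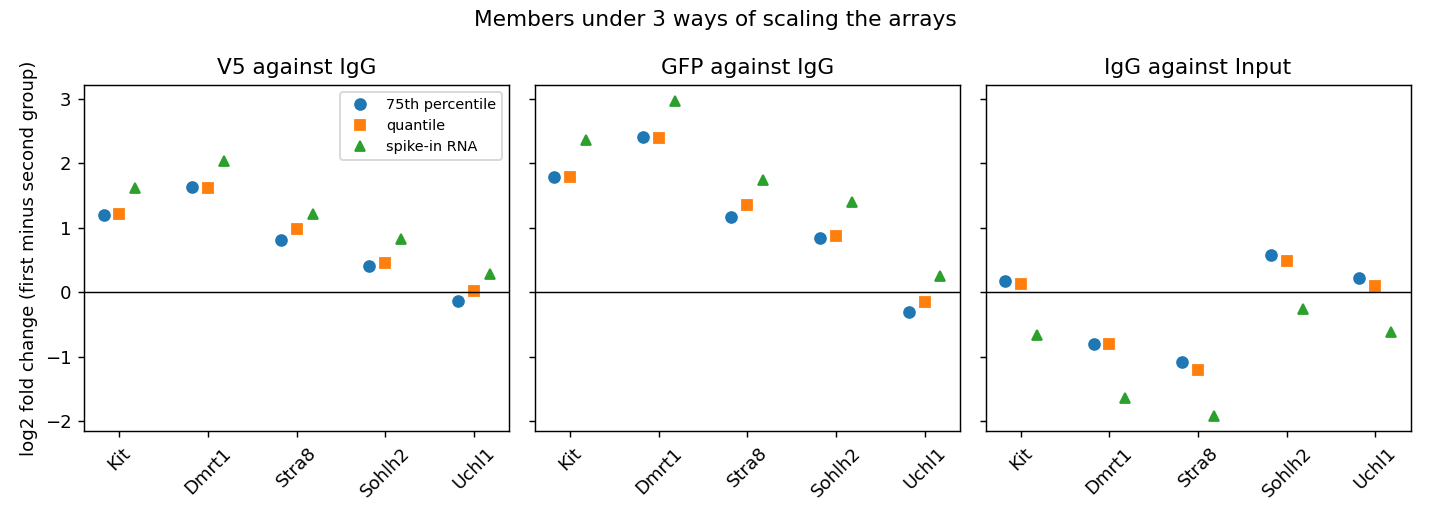
Log2 fold change (first minus second group) of the 5 genes with arrays scaled to their 75th percentile, by quantiles or to spike-in RNA. Kit, Dmrt1, Stra8 and Sohlh2 stay above 0 in both comparisons with IgG under all 3, and in IgG against Input Kit, Sohlh2 and Uchl1 fall below 0 with spike-in RNA.

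Background correction bears on the V5 calls. With normexp correction of the raw spot means, V5 against IgG had 0 genes called of all tested by limma, with 3694 at an unadjusted p under 0.05, among them 3 of the 5. The log2 differences were then 1.09 for Kit, 1.45 for Dmrt1, 0.75 for Stra8 and 0.28 for Sohlh2. In GFP against IgG the same 4 genes remained called higher under normexp.

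**Figure D4:**
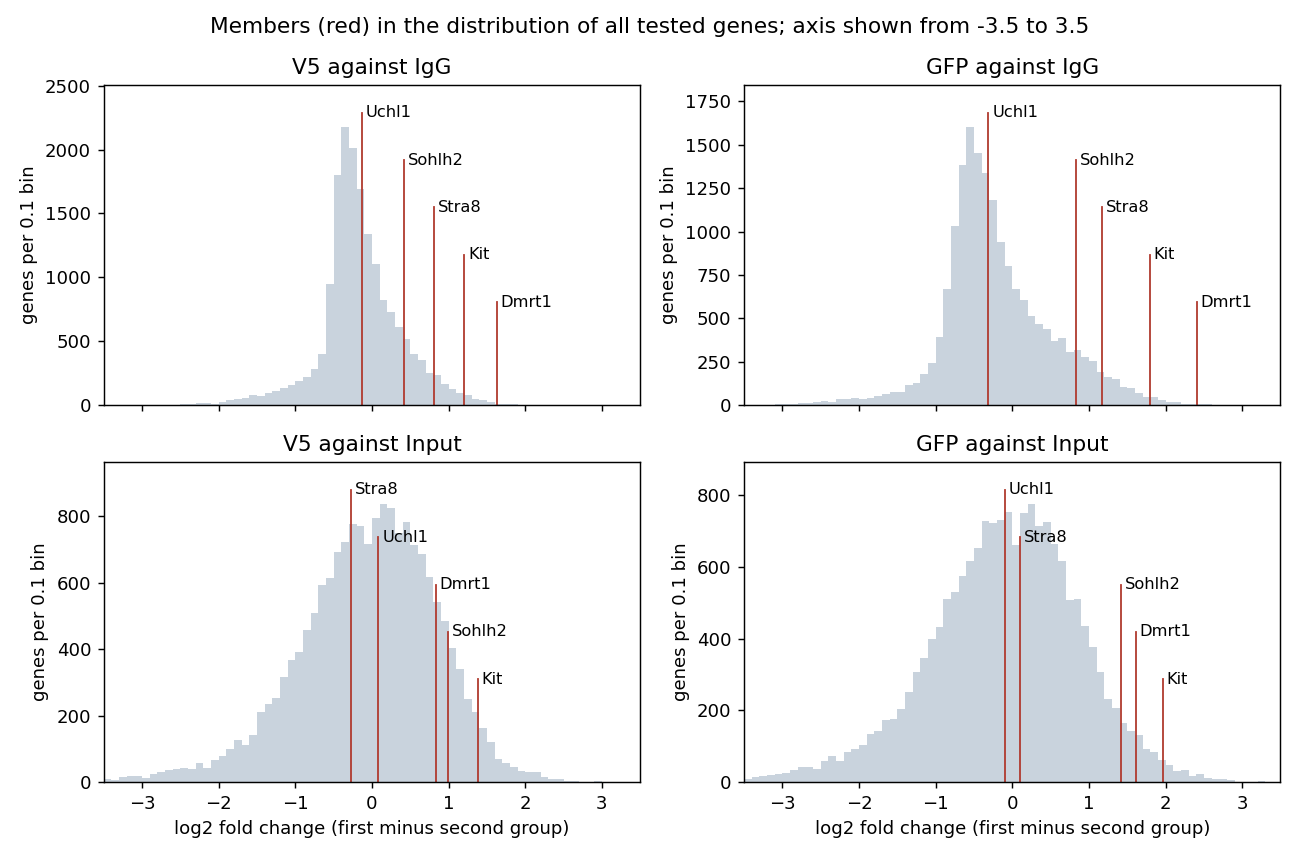
Distribution of log2 fold changes of all 17593 genes (bars, genes per 0.1 log2) in V5 and GFP against IgG and against Input, with the 5 genes marked by red lines whose heights have no meaning. Dmrt1 and Kit lie in the upper tail of both comparisons with IgG, Uchl1 lies near the centre, and Stra8 lies near the centre against Input.

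Between the antibodies, Kit, Dmrt1, Stra8 and Sohlh2 were lower in V5 than in GFP. The log2 differences were -0.58 ± 0.08 for Kit, -0.78 ± 0.08 for Dmrt1, -0.37 ± 0.08 for Stra8 and -0.42 ± 0.07 for Sohlh2, with limma adjusted p between 0.0263 and 0.0362. In that comparison 4 of 5 genes were called lower and 0 higher, where 7.17% of all genes were called lower and 6.76% higher. The V5 and GFP arrays did not overlap for any of the 5 genes, but this share over all genes was not counted. For Uchl1 the 2 probes separated in opposite directions, at log2 differences of 0.18 and -0.07, so its separation had no common direction. These calls were lost without any single V5 or GFP array, when 0 of the 5 genes were called by limma and 4 had an unadjusted p under 0.05, and the log2 differences kept their sign in all 15 other settings.

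Profiles over the 8 arrays were compared by the Euclidean distance between log2 values centred on each gene's own mean. The closest pair of members was Kit and Dmrt1 at 1.02, followed by Kit and Sohlh2 at 1.05, and the farthest was Dmrt1 and Uchl1 at 2.83. The median distance to all genes searched was 2.62 for Kit, 3.01 for Dmrt1, 1.88 for Stra8, 1.74 for Sohlh2 and 1.03 for Uchl1. Among 14900 genes searched, Klf5 lay nearest to Kit at 0.186, and Polr2d was also among its 3 nearest, at 0.202. Nearest to Dmrt1 were 2900001O04Rik at 0.356, Rbmx2 at 0.398 and Gm288 at 0.420, so the profile of Dmrt1 had no neighbour as close as those of the others. Nearest to Stra8 were D030074E01Rik, Dbf4 and Dpm1, from 0.157 to 0.191. Nearest to Sohlh2 were Rbm4, Ube2q2 and Zfp278, from 0.136 to 0.152, and nearest to Uchl1 were Hspbap1, Bambi and 2210016F16Rik, from 0.062 to 0.095.

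Other genes of spermatogonial differentiation were looked at in the same comparisons. As for all genes, counts of lower genes against IgG in the lists below depend on the scaling: with spike-in RNA they were 0 in V5 against IgG for differentiation, Kit signalling, retinoic acid signalling, meiotic entry, Dmrt and Uch genes, and 1 for undifferentiated spermatogonia. With normexp correction none of the lists had a gene called in V5 against IgG. Of 9 tested, 5 were higher and 2 lower in V5 against IgG, where 16.7% of all genes were called higher and 40.3% lower. The median log2 difference of the 9 was 0.39, against -0.21 for all genes. Sox3, a transcription factor of early spermatogonia, had a log2 difference of 1.38, Sall4, a zinc finger factor of spermatogonia, 0.76, and Dnmt3b, a DNA methyltransferase, 0.67. The 2 lower genes were Neurog3 at -0.54 and Nanos3 at -0.56, the second named after its value was seen. In GFP against IgG the counts were again 5 higher and 2 lower, with a median of 0.81. There, 21.6% of all genes were called higher and 52.1% lower.

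The ligand and the signalling partners of Kit did not share its values. Kitl, the stem cell factor made by Sertoli cells and named here because it binds Kit, had a log2 difference of 0.21 ± 0.26 in V5 against IgG (SE, limma adjusted p = 0.501) and -1.96 ± 0.26 in V5 against Input (limma adjusted p = 0.000578). Of 20 genes of Kit signalling, 4 were higher and 8 lower in V5 against IgG, and 7 higher and 7 lower in GFP against IgG. Over all genes, 16.7% were called higher and 40.3% lower in the first comparison, and 21.6% and 52.1% in the second. Src, a kinase that Kit activates, was lower in V5 against IgG, with a log2 difference of -0.49, and Mapk3, a kinase downstream of Kit, had -0.40. The median of the list was 0.05, against -0.21 for all genes. With spike-in scaling 11 were higher and 0 lower, at a median of 0.47 against 0.21 for all genes.

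Of 19 genes of retinoic acid signalling, 2 were higher and 9 lower in V5 against IgG. All genes had 16.7% called higher and 40.3% lower there. The median log2 difference of the 19, at -0.24, was close to the -0.21 of all genes. Rarb, a retinoic acid receptor, was among the higher ones. It was not well above background on either IgG array, and was at least 2.0049-fold higher in V5 and at least 2.62-fold higher in GFP. These bounds rest on its own IgG signals, which lay above the lowest signal of probes well above background on those arrays. Stra6, a retinol transporter, had a log2 difference of -0.47 and Dhrs3, a retinaldehyde reductase, -0.49. Rxrb, a partner of the retinoic acid receptors, had -0.29. With spike-in scaling 5 were higher and 0 lower, and the median was 0.17 against 0.21 for all genes.

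Among 10 genes of meiotic entry, 5 were higher and 2 lower in V5 against IgG by limma's adjusted p. In V5 against Input, by contrast, 0 were higher and 7 lower. Over all genes, 16.7% were called higher and 40.3% lower in V5 against IgG, and 37.7% and 35.5% in V5 against Input. Sycp3, a protein of the synaptonemal complex, had a log2 difference of 1.45 in V5 against IgG and -3.48 in V5 against Input. Dazl had 0.98 and -1.09. Stra8 had the same pair of signs, at 0.81 and -0.27, though the second was 0.02 in the authors' deposited table. Stag3 had -0.23 in V5 against IgG (limma adjusted p = 0.0314), close to the median of -0.21 of all genes. In V5 against Input Stag3 had -0.15, not past the threshold. In IgG against Input 9 of the 10 genes were lower and 0 higher, where 29.3% of all genes were called lower and 43.9% higher.

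Of 14 genes of undifferentiated spermatogonia, 6 were higher and 2 lower in V5 against IgG. In GFP against IgG 8 were higher and 2 lower. The shares of all genes were 16.7% higher and 40.3% lower in V5, and 21.6% and 52.1% in GFP. Lin28, an RNA-binding protein, had a log2 difference of 1.10 in V5 against IgG and Foxo1, a transcription factor of stem cell maintenance, 0.73, whereas Utf1 had -0.77. Bcl6b, a transcription factor of stem cell renewal, had 0.45. Of the 6 other Dmrt genes tested, 1 was higher and 0 lower in V5 against IgG, and that one was Dmrtb1 at 0.56. Of the 4 relatives of Uchl1, Uchl3 was higher at 0.36 and Bap1 lower at -0.37.

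Most tested markers of other cells that make some of these transcripts were lower in the precipitates than in IgG, with arrays scaled to the 75th percentile. So were 40.3% of all genes in V5 against IgG, where 16.7% were called higher, and 52.1% in GFP against IgG, where 21.6% were. For Dmrt1, which Sertoli cells also make, 12 of 14 Sertoli cell markers were lower and 0 higher in V5 against IgG, and 13 lower and 0 higher in GFP against IgG. Their summed scaled signal was 227 to 235 in V5, 196 to 207 in GFP, 304 to 308 in IgG and 313 to 319 in Input. For Kit, which Leydig cells also make, 7 of 9 tested Leydig cell markers were lower and 0 higher in V5 against IgG, and their sums were 30.2 to 31.5 in V5, 26.6 to 30.1 in GFP, 39.1 to 40.3 in IgG and 36.7 to 37.5 in Input. Of 7 mast cell markers, another source of Kit, 3 were tested and 2 were lower. Cpa3, Tpsb2, Tpsab1 and Ms4a2 were not well above background on both arrays of any group.

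In V5 against IgG 7 of 7 myoid, 6 of 8 leukocyte and 7 of 8 endothelial markers were lower and none was higher. Over all genes, 40.3% were called lower and 16.7% higher. Of 5 tested markers of neurons, which are rich in Uchl1, 3 were lower and 1 higher, the last being Elavl4, an RNA-binding protein, at a log2 difference of 1.26. Of 10 germ cell markers 3 were higher and 1 lower. These counts too are relative to the scaling. With spike-in RNA, 0 Sertoli, Leydig, myoid, leukocyte or endothelial markers were called lower in V5 against IgG, and 1 Sertoli and 1 leukocyte marker were called higher. Their medians then were -0.01 for Sertoli, 0.05 for Leydig, -0.09 for myoid, -0.05 for leukocyte and -0.07 for endothelial markers, all below the 0.21 of all genes. In GFP against IgG with spike-in RNA, 3 Sertoli, 3 myoid and 3 leukocyte markers stayed lower. There, 0 Leydig or endothelial markers were lower and 1 Leydig marker was higher. Of the 3 tested mast cell markers, 2 stayed lower in both comparisons. The part of cell mixture in the differences of the 5 genes was not tested.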

How the data were processed

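RNA of mouse testis preparations was measured on 8 one-colour Agilent arrays, 2 in each of 4 groups taken from the sample titles and antibodies. The members and the 15 other gene lists were chosen with earlier results of these data known. Per the file headers, the intensity values that the authors deposited were computed by Agilent Feature Extraction 9.1.3.1, with background subtracted and trends over the slide corrected, and they are not scaled between arrays. A further deposited table gives signal values that the authors scaled to the median and averaged over Input, V5 and GFP. Its 6 other value columns were not used.

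From each processed signal the log2 was taken and the 75th percentile of that array's non-control spots was subtracted. Outlier spots were dropped and the spots of a probe averaged. A probe was kept if it was well above background on both arrays of some group, which left 25629 probes, and the brightest stood for its gene name. Group means were fitted over all 8 arrays with limma 3.58.1 in R 4.3.3, which had 4 residual and 2.41 prior degrees of freedom. The 6 comparisons were two-sided, and p-values were adjusted over all 17593 genes by the Benjamini-Hochberg method with a threshold of 0.05. All adjusted p-values are from limma, those of single probes from a fit over all kept probes. A fold against a group below background was set, on each array, against the probe's own signal or the lowest signal of probes well above background, whichever was higher. The number of arrays limits the precision.

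Besides the members, the text names up to 4 genes of each other list by smallest p in V5 against IgG and the 3 nearest profiles of each member. Some genes that this rule names are not reported here. Exceptions are Kitl and the genes said to be named after their values were seen. Positions and promoter sequences come from RefSeq, GRCm38.p6, where all 6 listed genes had a position and 5 a promoter. A simulation of V5 against IgG covered 17570 genes. It recovered 22 of 50 genes changed 1.5-fold, 40 of 50 changed 2-fold, 46 of 50 changed 3-fold and 49 of 50 changed 4-fold. It called 7 unchanged genes. All other genes were simulated without a change and with independent noise, whereas 10036 genes were called in the data, so these rates need not hold there. Alternatives covered background correction, scaling, probe filter, probe choice, samples fitted, variance trend, replicate block, the arrays with conflicting descriptions and each array left out. Same-numbered arrays did not deviate together (correlations from -0.07 to 0.11), so the numbers were not taken to pair the arrays.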

Additional observations from a re-analysis of the deposited data

Results flagged for a closer look

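The effects of the V5 and GFP antibodies, both against the same IgG arrays, differed for 4 of the 5 genes by the direct test of V5 against GFP. The V5 effect minus the GFP effect was -0.58 for Kit, -0.78 for Dmrt1, -0.37 for Stra8 and -0.42 for Sohlh2 on the log2 scale. Relative to the median of all genes these differences were -0.67 for Kit, -0.87 for Dmrt1, -0.46 for Stra8 and -0.51 for Sohlh2. The calls passed the threshold in 5 of 14 alternative settings with a test, and V5 and GFP lay on 1 slide. Other lists went the same way in part. Of 14 genes of undifferentiated spermatogonia 4 were lower in V5 than in GFP and 0 higher, at a median log2 difference of -0.35. Of 9 other differentiation genes 3 were lower and 0 higher, at -0.41. Of 10 meiotic entry genes 0 were lower and 1 higher, at 0.08. Over all genes 7.17% were called lower and 6.76% higher, at 0.09. With normexp correction none of these lists had a gene called.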

How the results depend on the processing

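Over 14 alternative settings with a test, Kit, Dmrt1, Stra8 and Sohlh2 stayed higher in both precipitates than in IgG, and stayed past the threshold in all 14 for GFP and in 13, 13, 13 and 12 for V5. The cause of the losses below was not tested. With normexp background correction, limma called 0 genes in V5 against IgG (0 of the 5; 3694 genes at an unadjusted p under 0.05) and 0 in V5 against GFP (0 of the 5; 801 genes unadjusted), 3223 in GFP against IgG, 5255 in V5 against Input, 5703 in GFP against Input and 6270 in IgG against Input (2 of the 5). V5 against GFP called 2452 genes as reported, but 4 without the filter on dim probes, 3869 with only probes well above background on all arrays, 2 with only the groups compared, 4468 with an intensity trend and 4 without the arrays of conflicting descriptions. Of the 5 genes it called 0 without the filter, with only the groups compared and without the conflicting arrays, where 4, 5 and 4 had an unadjusted p under 0.05. Without the conflicting arrays V5 against IgG called 1240 genes, and Sohlh2 was no longer among them. Leaving out 1 array at a time, V5 against IgG called 6040 to 10636 genes and V5 against GFP 5 to 145, with 0 of the 5.

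The replicate block, with numbers that do not pair the arrays, left 2 genes called in V5 against GFP and 0 of the 5, of which 4 had an unadjusted p under 0.05; it ended no other call on the 5 genes.

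Signs turned with spike-in scaling for Uchl1 in V5 against IgG (0.28), GFP against IgG (0.26), V5 against Input (-0.34) and IgG against Input (-0.62), for Kit (-0.67) and Sohlh2 (-0.26) in IgG against Input, and for Stra8 in GFP against Input (-0.17). They also turned with quantile scaling for Uchl1 in V5 against IgG (0.0188), with normexp for Uchl1 in V5 against Input (-0.0991) and Stra8 in GFP against Input (-0.0631), with the mean of all probes for Uchl1 in V5 against Input (-0.0056), and in the authors' deposited table for Stra8 in V5 over Input (0.0207) and Uchl1 in GFP over Input (0.173). Scaling also moved the share of calls that were higher. With spike-in RNA it was 89.1% in V5 against IgG, 84.7% in GFP against IgG, 26.7% in V5 against Input, 33.3% in GFP against Input, 16.1% in IgG against Input and 6.2% in V5 against GFP, against 29.3%, 29.3%, 51.4%, 48.1%, 60.0% and 48.5% as reported. With quantile scaling it was 39.5% in V5 against IgG.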
